A study of Oncorhynchus mykiss with 14 samples.

Results

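PGAM5 (ENSOMYG00000047671) and ANKLE2 (ENSOMYG00000047668) are 2 of the 64494 annotated genes counted in rainbow trout eggs, and both had a mean above 1 normalized count, as did 30919 genes in all. The study chose them from the gynogenetic libraries, by the correlation of their counts with the survival of gynogenotes, which was positive for PGAM5 and negative for ANKLE2. They were then selected by their place next to each other in the genome. Their levels across the gynogenetic libraries are therefore given as a description and are not tested. Survival rates were not used here.

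The libraries come from eggs of 7 females of the Rutki broodstock, which were 5 years old. Each clutch gave 1 control and 1 gynogenetic library from a pool of 2 or 3 eggs. The study took eggs from 8 females and left female 5 out of the sequencing results for poor libraries and too few reads. Control eggs received rainbow trout sperm that had not been irradiated. Gynogenetic eggs were activated with UV-irradiated sperm of the European grayling, and were destined for a pressure shock that doubles the maternal chromosomes. The study states that eggs were collected immediately after treatment, and no source used here says whether the sequenced eggs had received the shock. The labels give all 14 samples, control eggs included, the genotype of XX doubled haploids. Clutches are numbered 1 to 7 here by the replicate number of the labels, which is not for every clutch the number of the female in the study. Between 34535902 and 67557305 counts were assigned to genes per library. Of the gene counts above 0, 99.7% to 99.8% were even, so that nearly every sequenced fragment adds 2 to a count, and counting errors were computed from counts divided by 2. None of the 8 oocyte or 6 other cell type markers had a symbol among the 244 at hand, so that the labelled cell type was not checked.

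PGAM5 is a protein phosphatase of mitochondria. In mammalian cells it is anchored in the inner membrane, is cut by the protease PARL when the membrane potential falls, and acts on the fission protein DRP1 and the mitophagy receptor FUNDC1. ANKLE2 is a protein of the endoplasmic reticulum and nuclear envelope with ankyrin repeats and a LEM domain. In human cells and in the nematode Caenorhabditis elegans it is needed to rebuild the nuclear envelope after mitosis, where it holds back the kinase VRK1 and brings protein phosphatase 2A to the chromatin protein BAF. Fish eggs store such transcripts during oogenesis, and early cleavages rely on the stored RNA until the embryo's own genome becomes active.

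Both genes lie on chromosome 6 of OmykA_1.1, the assembly that the authors mapped to. In the RefSeq annotation of that assembly, ANKLE2 spans positions 35306866 to 35318995 and PGAM5 positions 35319218 to 35327656, so that 222 bp separate them and their spans do not overlap. The next protein-coding gene before ANKLE2, LOC110525843, ends 421 bp away, and the next one after PGAM5, LOC110525848, starts 7224 bp away. The table gives no strand, so that it does not say whether the pair is transcribed in the same direction. The Ensembl gene models used for counting were not at hand. Reads that overlapped more than 1 gene were counted for none and made up 0.742% to 0.881% of the uniquely mapped reads. Of the 274 genes in the study's survival lists, 147 could be placed in the RefSeq table, and ANKLE2 with PGAM5 was the 1 pair of direct protein-coding neighbours among them.

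**Figure D1:**
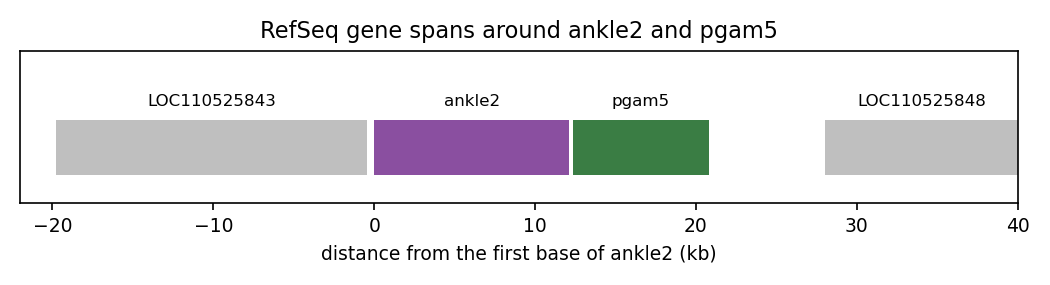
Spans of ANKLE2, PGAM5 and the flanking protein-coding genes in RefSeq, as distance in kb from the first base of ANKLE2. The 222 bp between both genes is the narrow gap between the coloured bars, and LOC110525848 runs past the right edge.

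The PGAM5 level differed by 10.5-fold between the lowest and the highest of the 14 libraries, and mostly between clutches. In control eggs PGAM5 had 1093 normalized counts in clutch 1, 442 in clutch 2, 355 in clutch 3, 1249.9 in clutch 4, 349 in clutch 5, 2159.5 in clutch 6 and 1459.9 in clutch 7. In gynogenetic eggs it had 1059, 272, 206, 930.2, 399.7, 1855 and 1239 normalized counts in the same order of clutches. Clutches 2, 3 and 5 were low in both pools and clutches 1, 4, 6 and 7 were high, and clutch 6 was the highest in both. The control library of clutch 6 was also the shallowest of the 14, with 34535902 counts, while its gynogenetic library was the deepest. The mean was 1016 ± 680.2 (SD, n = 7) in control and 852 ± 600.4 (SD, n = 7) in gynogenetic eggs, and the ranges of both groups overlapped over most of their extent. The counting error of a single library was 2.91% to 9.45%, which leaves out any spread between egg pools of a clutch.

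ANKLE2 varied less, by 3.25-fold over the 14 libraries. Its order of clutches ran largely opposite to that of PGAM5 in gynogenetic eggs (Spearman's rho -0.96). The genes were chosen there with opposite signs, and in control eggs rho was only -0.39. In control eggs ANKLE2 had 4786 normalized counts in clutch 1, 9211 in clutch 2, 7577 in clutch 3, 5486 in clutch 4, 4877 in clutch 5, 4694 in clutch 6 and 6128 in clutch 7. In gynogenetic eggs it had 4726, 5433, 6702, 4373.5, 5179, 2835 and 4277 normalized counts in the same order. Clutches 2 and 3, which were low in PGAM5, had the most ANKLE2 in control and in gynogenetic eggs, and clutch 6, which was high in PGAM5, had the least in both. In control eggs, however, clutch 6 (4694) and clutches 1 and 5 (4786 and 4877) lay too close to be ranked within counting error. Clutch 5 was low in PGAM5 in both pools without a high ANKLE2 level in its control eggs. The mean was 6108 ± 1705 (SD, n = 7) in control and 4789 ± 1189 (SD, n = 7) in gynogenetic eggs, with a counting error of 1.46% to 2.54% per library.

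**Figure D2:**
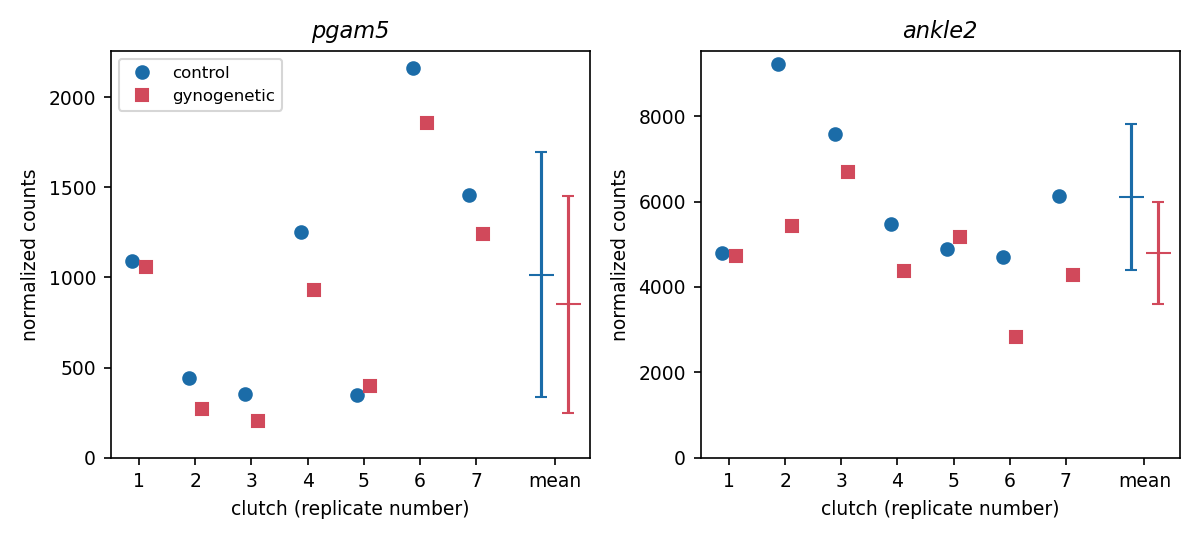
Normalized counts of PGAM5 (left) and ANKLE2 (right) in the control (circles) and gynogenetic (squares) library of each clutch, with the mean and SD over 7 clutches at the right of each panel. The PGAM5 level of clutches 2, 3 and 5 lies at or below 442 in both pools, and clutch 2 has the highest ANKLE2 level, 9211 in control eggs.

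The PGAM5 level varied more between clutches than between the pools of a clutch. The SDs are on the log2 scale, after the mean of each treatment group was subtracted. They thus leave out the mean difference between gynogenetic and control eggs, -0.32 for PGAM5 and -0.35 for ANKLE2. The SD of PGAM5 was 1.11 between clutches and 0.246 within a clutch, so that 95.4% of its remaining variance lay between clutches. For ANKLE2 the SD was 0.295 between and 0.236 within clutches, with 60.9% of the variance that remained after this step between clutches. Over the 24042 genes with a mean of at least 10 normalized counts, the medians of these SDs were 0.478 and 0.408, with 59.4% of the variance between clutches. PGAM5 thus had a larger spread between clutches than most genes, at or above that of 85.0% of them, and ANKLE2 a smaller one than most, at or above that of 28.8%. Within a clutch both genes were steadier than most, and 21.6% of genes had an SD within clutches at or below that of PGAM5 and 19.8% at or below that of ANKLE2. The genes compared go down to a mean of 10 normalized counts, against 934 for PGAM5 and 5449 for ANKLE2. Counting error is larger at low counts, and what this adds to these shares was not tested. The gynogenetic libraries, which enter these SDs, served to choose the genes, and the spread between clutches is a description.

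Ordered by the mean log2 level of its 2 libraries, PGAM5 rose from clutch 3 through clutches 2, 5, 1, 4 and 7 to clutch 6. The within-clutch SD of 0.246 is also the standard error of a difference between 2 clutch means. Only the steps from clutch 5 to clutch 1, of 1.52 log2 units, and from clutch 7 to clutch 6, of 0.57, were more than 2 such errors, and the other neighbours in the order did not differ beyond their spread. The limit of 2 errors, here and for the ratio, is a description and no test, since the same values set the order. For ANKLE2 the order was clutch 6, 1, 4, 5, 7, 2 and 3, and no step between neighbours was beyond 2 errors, the largest being 0.47 between clutches 7 and 2.

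The agreement of both pools of a clutch is a description, with no test, since the gynogenetic levels that chose the genes enter it. Pearson's r of the log2 level in control with that in gynogenetic eggs was 0.96 for PGAM5 over 7 clutches, and Spearman's rho was 0.86. Without clutches 3 and 5, the control libraries farthest from the median, r was 0.99 over 5 clutches. In control eggs the low and the high clutches were parted by a gap of 0.497 of the range. That was just under the share of 0.5 at which the libraries would have been treated as separate clusters. These clutches are thus close to being separate clusters in control eggs. In gynogenetic eggs the largest gap in PGAM5 was 0.384 of the range. For ANKLE2 r was 0.61 and rho 0.64 over 7 clutches, and r was 0.21 without clutches 2 and 3, so that it rested on those clutches. Over all genes with a mean of at least 10 normalized counts, not matched in level to the pair, the median r was 0.638. Of these genes, 4.41% had an r at or above that of PGAM5 and 53.2% at or above that of ANKLE2. Whether the agreement of ANKLE2 differed from that of PGAM5 was not tested.

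The ratio of both genes is independent of the scaling of a library, since it is taken within it. It is given in counts and not per transcript length, and so compares libraries and not the genes with each other. In control eggs there were 0.228 PGAM5 counts per ANKLE2 count in clutch 1, 0.048 in clutch 2, 0.0469 in clutch 3, 0.228 in clutch 4, 0.0716 in clutch 5, 0.46 in clutch 6 and 0.238 in clutch 7. In gynogenetic eggs the ratio was 0.224, 0.0501, 0.0307, 0.213, 0.0772, 0.654 and 0.29 in the same order. All 7 clutches had the same order in both pools, from clutch 3 through clutches 2, 5, 4, 1 and 7 to clutch 6. In control eggs, however, clutches 1 and 4 (0.2285 and 0.2278) differed by less than the counting error of PGAM5. The same held for clutches 2 and 3 (0.0480 and 0.0469), so that the order within these pairs is not resolved. Put the other way, ANKLE2 had 4.38 counts or fewer per PGAM5 count in control eggs of clutches 1, 6 and 7 and 4.39 in clutch 4, against 20.8 in clutch 2 and 21.3 in clutch 3, with clutch 5 between them.

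The ratio spanned 9.81-fold in control and 21.3-fold in gynogenetic eggs, more than either gene alone. Both genes were chosen with opposite signs in the gynogenetic libraries, so a wide spread of their ratio there follows from the choice. Control eggs come from the same clutches, so the spread of the ratio between clutches is a description in both pools. Its SD on the log2 scale, again with the group means subtracted, was 1.42 between clutches and 0.246 within a clutch. Of the remaining variance 97.1% lay between clutches. The steps from clutch 2 to 5, from 5 to 4 and from 7 to 6 were beyond 2 errors, at 0.60, 1.56 and 1.06 log2 units. Those from clutch 3 to 2, from 4 to 1 and from 1 to 7 were not, at 0.37, 0.04 and 0.22. That does not show that these clutches had the same ratio. In gynogenetic eggs clutches 2 and 3 had 0.0501 and 0.0307, beside counting errors of PGAM5 of 9.2% and 9.45%. In control eggs the gap between clutches 5 and 4 was 0.506 of the range. The control libraries thus fell into separate clusters of 3 and 4, and no pooled correlation is given for the ratio. The gap rule was not applied to gynogenetic eggs. There the log2 ratios of clutches 5 and 4 were -3.69 and -2.23, in a range from -5.02 to -0.61. The clusters hold too few clutches for a correlation within them.

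**Figure D3:**
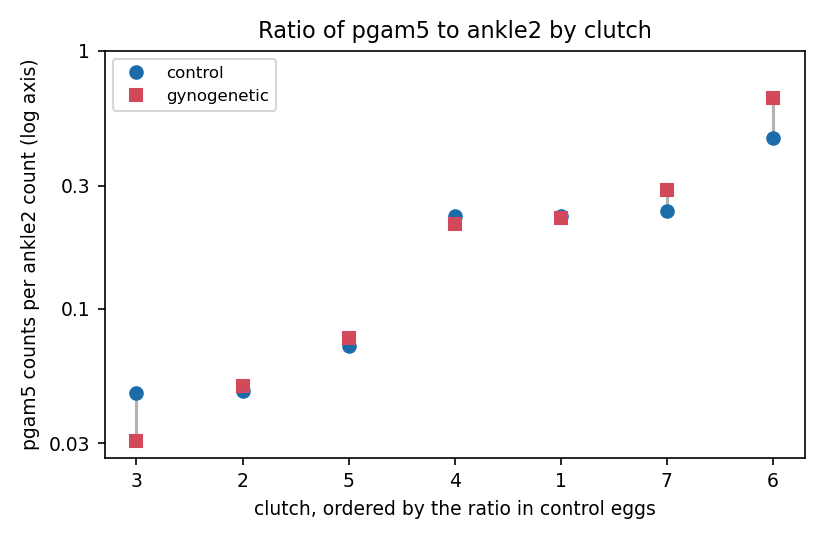
PGAM5 counts per ANKLE2 count (log axis) in the control (circles) and gynogenetic (squares) library of each clutch, with clutches ordered by the control value. The order is the same in both pools, from 0.0469 and 0.0307 in clutch 3 to 0.46 and 0.654 in clutch 6. In control eggs, clutches 1, 4 and 7 and clutches 2 and 3 lie too close to be ranked within counting error. The same holds for clutches 1 and 4 in gynogenetic eggs.

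Across clutches, PGAM5 and ANKLE2 ran in opposite directions in the gynogenetic libraries, where r of their log2 levels was -0.89 and rho -0.96 over 7 clutches. Without clutches 2 and 3, r was -0.82 over 5 clutches. Both genes were chosen in these libraries with opposite signs, so the negative value follows from the choice and is not tested. In the control libraries r was -0.53 and rho -0.39 over 7 clutches, and r ran from -0.85 to -0.40 when 1 clutch was left out. Clutch 5, with 349 normalized counts of PGAM5 and 4877 of ANKLE2, lay low in both genes in control eggs. The value of -0.85 was that without clutch 5, and without clutches 3 and 5 it was -0.86. The control eggs come from the same clutches as the gynogenetic eggs, so this correlation is not independent of the choice either and is given with no test.

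Within clutches, the change from control to gynogenetic eggs had the same sign for both genes in all 7 clutches. Both changes of clutch 1, and that of PGAM5 in clutch 5, lay within the 95% counting interval, so their signs are not resolved. The changes of both genes share the scaling of the same libraries, and what this adds to a common sign was not tested. In clutch 2 PGAM5 was 0.616-fold and ANKLE2 0.59-fold of its control level, and in clutch 4 they were 0.744-fold and 0.797-fold. In clutch 3 PGAM5 was 0.581-fold and ANKLE2 0.885-fold, and in clutch 6 they were 0.859-fold and 0.604-fold, so that the sizes differed. Clutch 1 was nearly the same in both pools, with 0.968-fold for PGAM5 and 0.988-fold for ANKLE2, and clutch 5 was the 1 clutch in which both were higher in gynogenetic eggs, at 1.14-fold and 1.06-fold. The correlation of both changes was positive, with r = 0.48 and rho = 0.5 over 7 clutches, again as a description, since the gynogenetic levels enter both changes. Without clutches 2 and 3, r of the changes was 0.69 over 5 clutches. The leave-one-out values ran from 0.18 without clutch 5 to 0.785 without clutch 3. Whether this differs from the negative value between clutches was not tested.

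**Figure D4:**
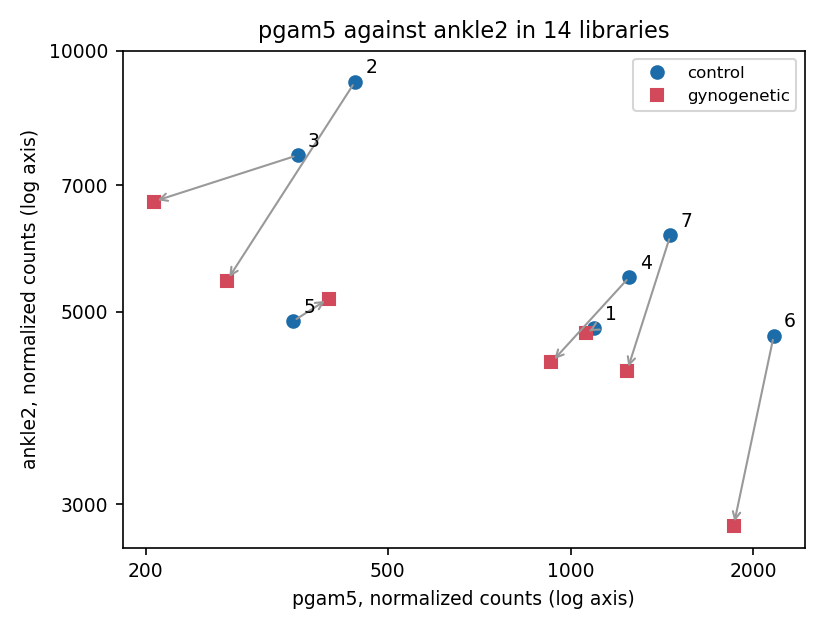
ANKLE2 against PGAM5 normalized counts (log axes) in the 14 libraries, with an arrow from the control (circle, numbered by clutch) to the gynogenetic (square) library of each clutch. Clutches 2 and 3 lie at low PGAM5 and high ANKLE2, clutch 6 at the opposite end, and 6 of the 7 arrows point down and to the left.

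Both genes were lower in gynogenetic than in control eggs in 6 of 7 clutches. The mean within-clutch difference on the log2 scale was -0.32 ± 0.35 (SD, n = 7) for PGAM5 and -0.35 ± 0.33 (SD, n = 7) for ANKLE2. A two-sided exact sign-flip permutation test over the 7 clutches, added after the data were seen, gave an unadjusted p = 0.0469 for each gene. Adjusted by Benjamini-Hochberg over both genes and their ratio, the sign-flip p was 0.0703 for each gene. Neither value is adjusted over all genes. Without pairing, the exact permutation p was 0.598 for PGAM5 and 0.108 for ANKLE2. Of all genes, 9.93% were lower in gynogenetic eggs in at least 6 of 7 clutches. The difference exceeded the 95% counting interval in 5 clutches for PGAM5, namely clutches 2, 3, 4, 6 and 7, all lower, and in 6 for ANKLE2, which were those 5, all lower, and clutch 5, which was higher. These intervals cover counting error only and compare libraries, not treatments.

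Treatment was tested over all genes with edgeR's quasi-likelihood test. It called 0 of the 2 genes at an adjusted p below 0.05, beside 0.184% of the 30919 genes, all of them lower. The log2 difference was -0.25 ± 0.50 (SE, adjusted p = 1.0) for PGAM5 and -0.36 ± 0.20 (SE, adjusted p = 0.974) for ANKLE2. The SE of every edgeR fit given here was derived from the test, as the absolute difference divided by the square root of its F statistic. With the clutch as a replicate block, edgeR called 5.04% of genes, 1557 in place of 57, but again 0 of the 2. Of the 1557, 396 were higher and 1161 lower in gynogenetic eggs. PGAM5 then differed by -0.32 ± 0.17 (SE, adjusted p = 0.379) and ANKLE2 by -0.36 ± 0.13 (SE, adjusted p = 0.126). Before adjustment, edgeR's p was below 0.05 for 0 of the 2 genes without the block and for 1 with it, ANKLE2. Over all genes it was below 0.05 for 1886 of 30919 without the block and for 4511 with it. DESeq2 called 0 of the 2, with adjusted p = 0.934 for ANKLE2 and 1.0 for PGAM5.

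The ratio of PGAM5 to ANKLE2 did not move with treatment in a common direction. Its log2 value in gynogenetic minus that in control eggs was 0.03 ± 0.35 (SD, n = 7), higher in 4 of 7 clutches (two-sided exact sign-flip permutation p = 0.8125, where 0.0156 is the smallest the design allows). It fell by 0.61 in clutch 3, rose by 0.51 in clutch 6 and by 0.28 in clutch 7, and lay between -0.10 and 0.11 in the other 4. The sign of the mean turned without clutch 6, at -0.05, and without clutch 7, at -0.01.

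**Figure D5:**
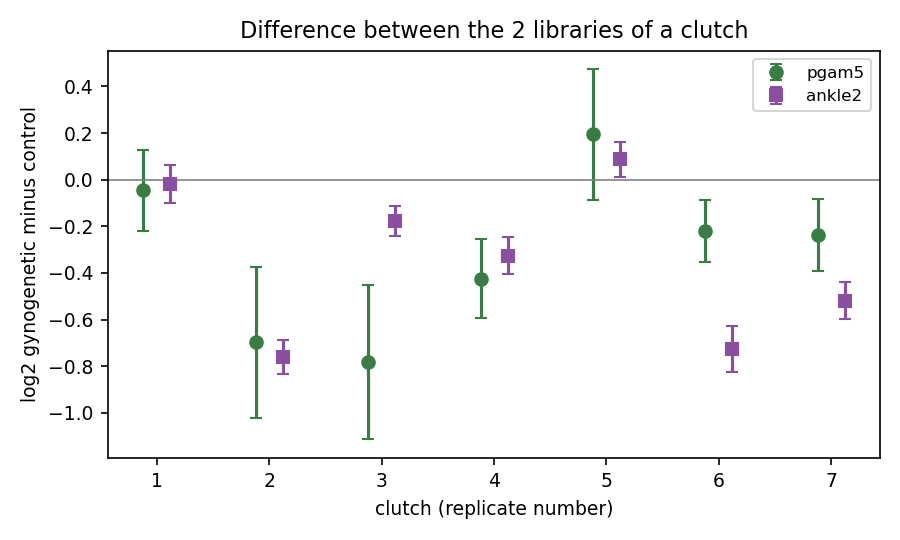
Log2 difference between the gynogenetic and the control library of each clutch for PGAM5 (circles) and ANKLE2 (squares), with 95% counting intervals as bars. Both genes lie below 0 in 6 clutches and above 0 in clutch 5, and clutch 3 and clutch 6 show the widest distance between the genes.

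The summed normalized counts of both genes, most of which were of ANKLE2, had less spread relative to their mean than either gene. In absolute terms the SD of the sum was above that of PGAM5, with 1451 and 680 in control eggs. In gynogenetic eggs these SDs were 667 and 600. The sum ran from 5227 to 9653 in control eggs, with a coefficient of variation of 20.4% beside 27.9% for ANKLE2 and 67.0% for PGAM5. In gynogenetic eggs it ran from 4690.0 to 6908, with 11.8% beside 24.8% and 70.5%. The opposite order of both genes in the gynogenetic libraries was fixed by the choice, so the spread of their sum there is a description, and the sum was not tested.

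Few partners of either protein had a symbol. Of 20 genes listed around PGAM5 for mitochondrial dynamics, mitophagy and necroptosis, 2 were found, the mitochondrial channel VDAC2 (ENSOMYG00000017635) and the executioner protease CASP6 (ENSOMYG00000038502). Of 18 genes listed around ANKLE2 for nuclear envelope assembly, 2 were found, PPP2R2AB (ENSOMYG00000044320), a regulatory subunit of protein phosphatase 2A, and ENSOMYG00000019381, which the study's annotation names tor3a and describes as torsin-1A-like. All 4 come from the study's survival lists, which were chosen on these libraries. None of the 4 passed for treatment in edgeR, without the block (adjusted p = 1.0 for each, 0 at an unadjusted p below 0.05) or with it (1 at an unadjusted p below 0.05, PPP2R2AB, beside 4511 of all 30919 genes). DESeq2 called none of the 3 for which it gave an adjusted p, and gave none for ENSOMYG00000019381.

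VDAC2 had 17027 ± 3420.4 normalized counts (SD, n = 7) in control and 20034 ± 4278 (SD, n = 7) in gynogenetic eggs, and CASP6 had 58.7 ± 15.5 (SD, n = 7) and 53.1 ± 13.3 (SD, n = 7). PPP2R2AB had 773 ± 426 (SD, n = 7) and 1121 ± 688 (SD, n = 7), with a log2 difference of 0.45 ± 0.17 (SE, adjusted p = 0.142) under the block in edgeR. ENSOMYG00000019381 had 9.12 normalized counts or fewer in every library. Over the 14 libraries, which are 7 pairs from the same clutches, the log2 level of CASP6 correlated with that of PGAM5 with r = 0.59 and VDAC2 with r = 0.10, and PPP2R2AB correlated with ANKLE2 with r = -0.23, all given as descriptions. CASP6 was chosen in the gynogenetic libraries with the same sign as PGAM5, so that a positive r follows in part from the choice. VDAC2 and PPP2R2AB come from the study's list for control survival. For ENSOMYG00000019381 r with ANKLE2 was -0.67, on these low levels. Like ANKLE2 it is on the study's list for gynogenetic survival, so that this r is not independent of the choice.

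The genes most like PGAM5 over the 14 libraries, by Pearson's r of log2 levels among 24042 genes, were ENSOMYG00000057021 at 0.94 and IRS2 (ENSOMYG00000040771), an adaptor of insulin signalling, at 0.92, and the next 3 had 0.91 to 0.92. IRS2 ran from 0 to 658 normalized counts. The genes most opposed were ENSOMYG00000032447 at -0.92 and, in the fourth place, the small GTPase ARL3 (ENSOMYG00000046344) at -0.87, which ran from 1555 to 4549 normalized counts. IRS2 and ARL3 are, like PGAM5, on the study's list for gynogenetic survival, and so were chosen in the same libraries.

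For ANKLE2 the likeness was weaker. The 5 most like genes had r from 0.81 to 0.82, led by ENSOMYG00000010428, and the 5 most opposed had -0.82 to -0.79, led by ENSOMYG00000027148, and none of these 10 had a symbol at hand. PGAM5 and ANKLE2 correlated with each other with r = -0.58 over the 14 libraries. That placed ANKLE2 among the lower 2.95% of genes by r with PGAM5, and PGAM5 among the lower 1.43% by r with ANKLE2. The gynogenetic libraries, in which both genes were chosen with opposite signs, are among the 14. A low place among genes not so chosen therefore follows in part from the choice, and it is a description with no test. In absolute value, 1508 genes correlated with PGAM5 at least as strongly as its neighbour ANKLE2 did. The medians over all genes were -0.01 with PGAM5 and 0.00 with ANKLE2.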

How the data were processed

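RNA of 14 egg pools, 2 per clutch, was sequenced from poly(A) libraries. The authors trimmed reads with Flexbar, mapped them with STAR 2.7.5c to OmykA_1.1 and assigned them to Ensembl genes with HTSeq 1.99.2, and the submitters' notes also list FastQC 0.11.9 and DESeq2 3.16. The authors deposited raw counts of 64494 genes per library, and the 5 summary lines were left out (24.7% to 31.5% of uniquely mapped reads fell in no gene). No source used here gives the strand option of HTSeq, so that sense and antisense reads cannot be told apart. Normalized counts are counts divided by DESeq2 1.42.0 size factors over the 14 libraries, and log2 values have a pseudocount of 1. Genes with a mean above 1 were tested with edgeR 4.0.16 in R 4.3.3 (quasi-likelihood test, TMM factors, Benjamini-Hochberg over 30919 genes). The test was checked on simulated data with a smaller spread between clutches than PGAM5 had, so the check does not cover that gene. Within-clutch differences used exact two-sided permutation tests over 7 clutches. Permutation tests were also planned for correlations, but their p-values are not used, since the libraries that chose the genes, or their clutches, enter each of them.

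Replicate numbers pair the libraries, since both come from the same female. As a check, their deviations from the group means correlated with r from 0.373 to 0.529 for the same number and at most 0.0548 otherwise. Eggs are pooled per clutch, and 1 library per clutch and group was made. Symbols come from the study's gene lists, and the RefSeq table was joined through the NCBI gene numbers there, since it holds 0 Ensembl identifiers; genome neighbours other than the pair could therefore not be matched to counts. The named genes are the pair, list members with a symbol and the genes most like or opposed to either by r over the 14 libraries, of which the leading ones and those with a symbol are printed. Members and lists were chosen with earlier results of these data known. Alternatives were other normalizations, filters, pseudocounts and scales, DESeq2, the replicate block, leaving out clutches and, chosen after seeing the data, halved counts and the block with DESeq2 size factors.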

Additional observations from a re-analysis of the deposited data

Results flagged for a closer look

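The ratio of PGAM5 to ANKLE2 in gynogenetic eggs of clutch 6, 0.654 PGAM5 counts per ANKLE2 count, stood apart from the other 6 clutches, which ran from 0.0307 to 0.29. In control eggs the same clutch had the highest ratio as well, 0.46, but not past the limit for a sample far from the others. This held for the ratio in that direction only. The gap to the nearest clutch was 0.585 of the range, just past the limit, but 0.267 on the log2 scale and 0.0623 for ANKLE2 counts per PGAM5 count. These libraries chose both genes, so the value is a description. Chance flags about 1 in 20 groups, and 9 groups of values were examined.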

How the results depend on the processing

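For PGAM5 and ANKLE2 all 15 alternatives of each treatment test kept the sign and stayed above an adjusted p of 0.05. Leaving out 1 clutch gave log2 differences of -0.29 to -0.21 for PGAM5 and -0.44 to -0.26 for ANKLE2. Over all genes the 57 calls became 1557 with the replicate block, 1361 with halved counts and the block, 1546 with the block and DESeq2 size factors, 245 with DESeq2, and 4 to 51 without 1 clutch. The remaining 4 alternatives, with halved counts alone among them, gave 55 to 65. Without pairing, the treatment difference of the ratio had an exact permutation p of 0.971, and without 1 clutch the difference was -0.0468 to 0.139. The negative sign came without clutch 6 and, at -0.00918, without clutch 7. The correlation in control libraries was -0.85 to -0.40 without 1 clutch, with no test. Without 1 clutch, r between pools was 0.94 to 0.99 for PGAM5 and 0.49 to 0.72 for ANKLE2. Depth limits PGAM5 more than ANKLE2, with a counting error of up to 9.45%.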
